A study of Ptychodera flava with 8 samples.

Results

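Scaffolds 1, 2, 3 and 26 of the Ptychodera flava assembly held 18736 of the 202721 ATAC-seq peaks deposited for early development, or 9.24%. Of the 199288 peaks on the 27 scaffolds of at least 10 Mb they held 9.40%, while they make up 16.8% of the length of those scaffolds. Peaks were assigned to them by the scaffold name, and the 4 scaffolds had been chosen by their low number of listed peaks. That low number is therefore given as a description and supports nothing below. The sparser bins, longer empty stretches, longer distances and smaller groups of neighbouring peaks described below follow in part from that choice. The 18736 peaks comprised 4255 of the early blastula list and 4438, 3937 and 6106 of the early, mid and late gastrula lists. They were set against the 180552 peaks on the 23 other scaffolds of at least 10 Mb, called the other large scaffolds here. The samples were whole animals of this acorn worm, a hemichordate, at early blastula and at early, mid and late gastrula. Each stage had 2 libraries, and no treatment or genetic change is given in the labels, nor whether its libraries came from separate cultures. Embryos of a sample were pooled, so cell types are mixed in every list. Each stage has 1 peak list and no value per library, so no difference below has a replicate check, no test was run, and sequencing depth is unknown.

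ATAC-seq uses a transposase that cuts into DNA left free by nucleosomes, and a peak marks a stretch that was cut more often than its surroundings. Such stretches are mostly promoters and enhancers, and in animal genomes they tend to cluster around genes while long gene-poor or repeat-rich stretches hold few. In early embryos the set of accessible stretches is remodelled as the zygotic genome is switched on and cell fates are set during gastrulation. A stretch without a peak can be closed chromatin, a part of the assembly to which short reads cannot be assigned, or signal below the authors' threshold. Peak lists alone do not separate these, and their part in the values below was not tested.

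The 4 scaffolds were peak-poor as a group but were not the 4 sparsest. On them the lists held, in order of development, 23.6, 24.6, 21.8 and 33.8 peaks per Mb, against 46.1, 48.2, 43.2 and 64.2 peaks per Mb on the other large scaffolds. Peaks covered 0.783%, 0.798%, 0.717% and 1.04% of their sequence from early blastula to late gastrula, against 1.61%, 1.63%, 1.47% and 2.02% of the other large scaffolds. After overlapping peaks of the 4 lists were merged, the 4 scaffolds held 7909 consensus regions, or 43.8 per Mb, against 82.0 per Mb on the other large scaffolds.

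The 4 scaffolds fell into a very sparse pair and a moderately sparse pair. Scaffold 26, the shortest of the 4 at 13.98 Mb, held 370 regions at 26.5 per Mb, and scaffold 3, with 50.6 Mb, held 1573 at 31.1 per Mb. Scaffold 1, the longest of all at 63.0 Mb, held 3176 regions at 50.4 per Mb, and scaffold 2, with 53.1 Mb, held 2790 at 52.5 per Mb. Scaffolds 27, 23, 24 and 25, which are not among the 4, lay between these pairs at 32.7, 39.6, 40.3 and 44.5 regions per Mb. The next denser scaffold, scaffold 7, had 67.6 regions per Mb, and scaffold 14 was densest at 110 per Mb. Peaks gave the same picture in every list. At early blastula scaffold 26 had 13.4 peaks per Mb, scaffold 3 had 17.1, and scaffolds 1 and 2 had 27.6 each. At late gastrula these densities were 19.7, 23.6, 39.1 and 41.0 peaks per Mb for scaffolds 26, 3, 1 and 2. Scaffold 26 ranked lowest of the 27 large scaffolds and scaffold 3 second lowest at all 4 stages, while scaffolds 1 and 2 took ranks 7 and 8.

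**Figure D1:**
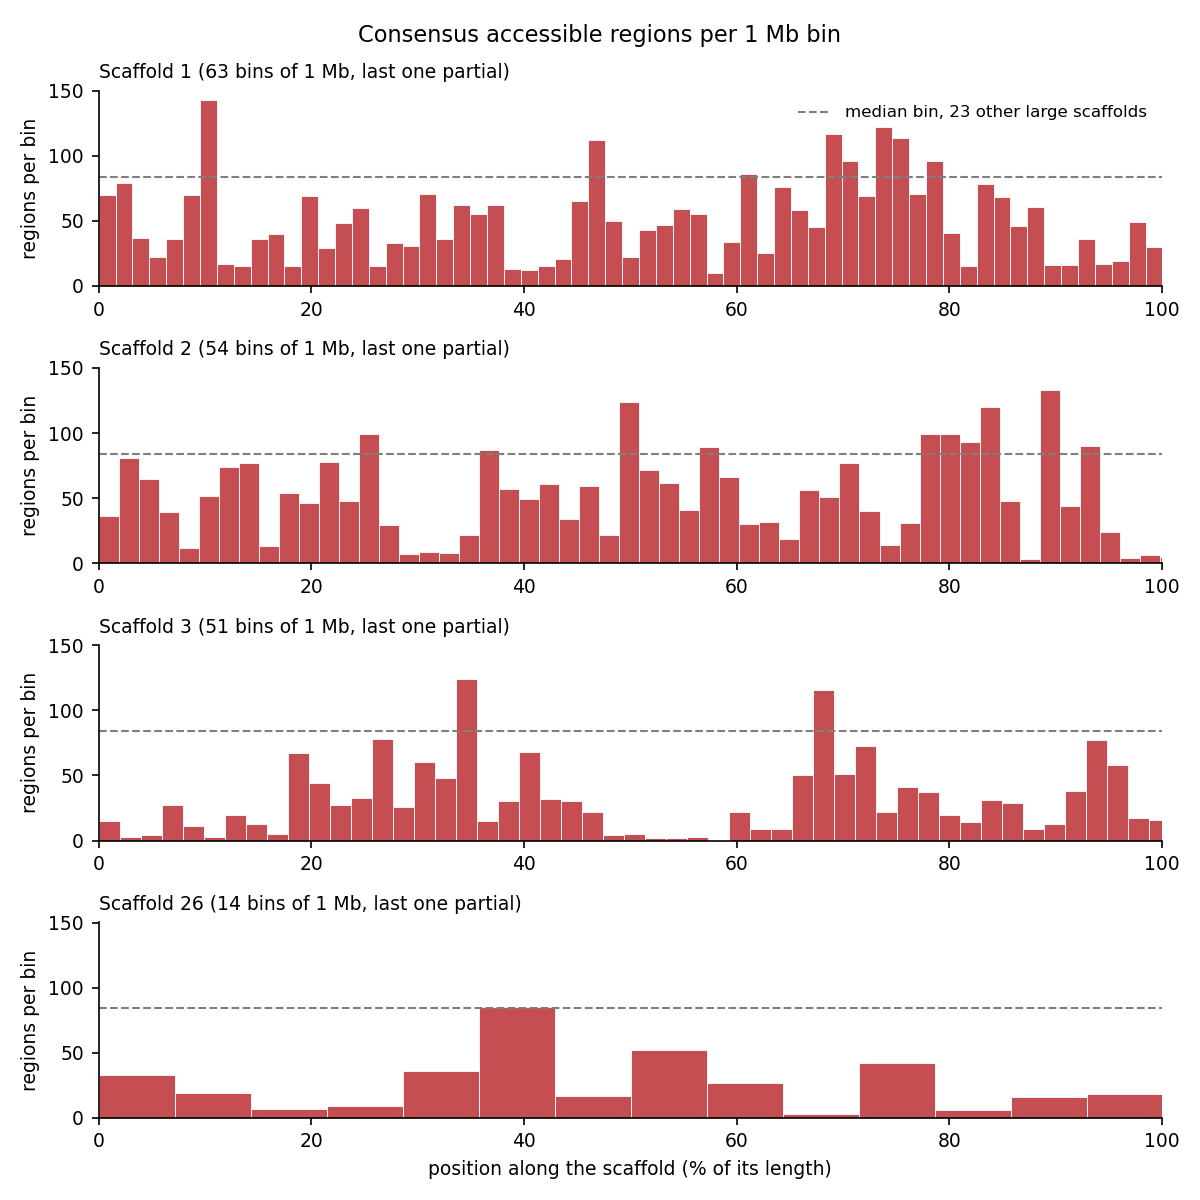
Number of consensus regions in each 1 Mb bin, by position along scaffolds 1, 2, 3 and 26 in percent of the scaffold's length. The dashed line is the median of 84 regions per full bin on the 23 other large scaffolds, and most bars lie below it although single bins on scaffolds 1, 2 and 3 exceed 120 regions.

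Along the scaffolds, dense and nearly empty megabases alternated. The median full 1 Mb bin of the 4 scaffolds held 37 regions, with quartiles of 17 and 64.25, against a median of 84 and quartiles of 53 and 110 on the other large scaffolds. Bins with at most 10 regions made up 24 of 178 full bins on the 4 scaffolds (13.5%) and 20 of 885 on the other large scaffolds (2.26%). Bins with at least 100 regions were 10 of 178 (5.62%) on the 4 scaffolds, against 306 of 885 (34.6%). The spread between bins was wide. The coefficient of variation was 0.725 on the 4 scaffolds, against 0.468 on the other large scaffolds, and the fullest 20% of bins held 43.1% of the regions, against 33.0%. Scaffolds 23, 24, 25 and 27, the 4 other scaffolds sparser than scaffold 2, were at least as uneven when pooled. Their coefficient of variation was 0.795, their fullest 20% of bins held 46.2% of the regions, and 16.7% of their bins had at most 10.

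Each of the 4 scaffolds also had a dense megabase. Scaffold 1 was fullest at 6000001 to 7000000, with 143 regions, of which 44 had a peak at all 4 stages. Its emptiest full bin was 36000001 to 37000000, with 10 regions. Cut into consecutive pieces of 20% of its length, scaffold 1 held 32.2% of its regions in the next to last piece, at 81.2 per Mb, close to the density of the other large scaffolds. Its last piece held 36.8 per Mb. Scaffold 2 had its densest and its sparsest bin side by side, with 3 regions at 46000001 to 47000000 and 133 regions at 47000001 to 48000000. Its pieces of 20% were more even, from 46.6 to 59.7 regions per Mb.

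By the coefficient of variation of 1 Mb bins scaffold 3, with 0.911, was the least even of the 4, ahead of scaffold 26 with 0.850. The fullest 20% of bins held 49.6% of the regions on scaffold 3 and 50.9% on scaffold 26, so this order turns on the measure. The scaffold 3 bin at 17000001 to 18000000 held 124 regions, while the bin at 29000001 to 30000000 held none, the only full 1 Mb bin without a region on any of the 27 large scaffolds. Of its pieces of 20%, the first and the middle one held 16.6 and 16.8 regions per Mb, with 48.8 per Mb between them. On scaffold 26 the densest bin was 5000001 to 6000000, with 85 regions, and the sparsest full bin was 9000001 to 10000000, with 3. No full bin of scaffold 26 reached 100 regions.

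The longest run of nearly empty megabases lay on scaffold 3. From 24000001 to 30000000, 6 bins in a row had at most 10 regions each and 16 regions in all. Elsewhere on the large scaffolds such runs reached at most 3 bins, on scaffold 2 at 15000001 to 18000000 with 24 regions, and on scaffolds 24 and 25. The 16 regions of the scaffold 3 run included 2 with a peak at all 4 stages, at 24420163 to 24420470 and 25600479 to 25600885. Another 11 were listed at 1 stage, of which 5 were of early blastula alone and 5 of late gastrula alone. In all bins of 1 to 10 regions on the 4 scaffolds, 13.8% of regions had all 4 stages and 53.1% had 1 stage. The scaffold 3 run held only 8, 5, 4 and 8 peaks in order of development. Their median width was 211 bp over the 4 lists. Their median percentile within its list was 25.8 for −log10 p and 58.4 for enrichment. Runs of 2 such bins on the 4 scaffolds had median widths of 208.5 to 233.5 bp and median −log10 p percentiles of 25.8 to 47.6. In the scaffold 2 run at 15000001 to 18000000, 3 of 24 regions had all 4 stages and 7 had 1 stage. The median percentiles there were 75.7 for enrichment and 49.9 for −log10 p.

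Long empty stretches took up more of the 4 scaffolds than of the other large scaffolds, which follows in part from choosing them for few peaks. Stretches of 100 kb or more without a peak in any list covered 93.4 Mb, or 51.7% of the 4 scaffolds, against 23.1% of the other large scaffolds. The share was 69.6% on scaffold 26, 65.0% on scaffold 3, 45.7% on scaffold 2 and 42.0% on scaffold 1. The other large scaffolds ranged from 6.72% on scaffold 14 to 59.5% on scaffold 25, with a median of 21.9%. Stretches of at least 500 kb numbered 23 on the 4 scaffolds, 12 of them on scaffold 3, and 25 on the other large scaffolds. The other large scaffolds are 895 Mb long in all, against 181 Mb. Of these 25 stretches, 14 lay on the 4 other scaffolds sparser than scaffold 2, which are 79.5 Mb long in all. They covered 12.5% of that length, against 8.66% of the 4 scaffolds. Stretches of 100 kb or more covered 56.5% of it, against 51.7%.

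The longest empty stretch of all large scaffolds was on scaffold 3 at 28602776 to 30038276, or 1435501 bp. The second longest was also on scaffold 3, at 332346 to 1493746 (1161401 bp), and scaffold 3 held 5 of the 6 longest. The longest on scaffold 2 was at 46148554 to 46902286 (753733 bp), on scaffold 26 at 9299902 to 10014255 (714354 bp) and on scaffold 1 at 36266823 to 36858213 (591391 bp). Single lists left longer stretches. The early blastula list had no peak on scaffold 3 from 26931189 to 30038292, or 3107104 bp. The longest stretch of the early gastrula list was 25602717 to 28602212 (2999496 bp), that of the mid gastrula list 25600886 to 28366979 (2766094 bp) and that of the late gastrula list 25601984 to 27776976 (2174993 bp). These 4 stretches share 26931189 to 27776976, inside the nearly empty run of scaffold 3. On the other large scaffolds the longest stretches of single lists were between 1.37 and 1.75 Mb.

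**Figure D2:**
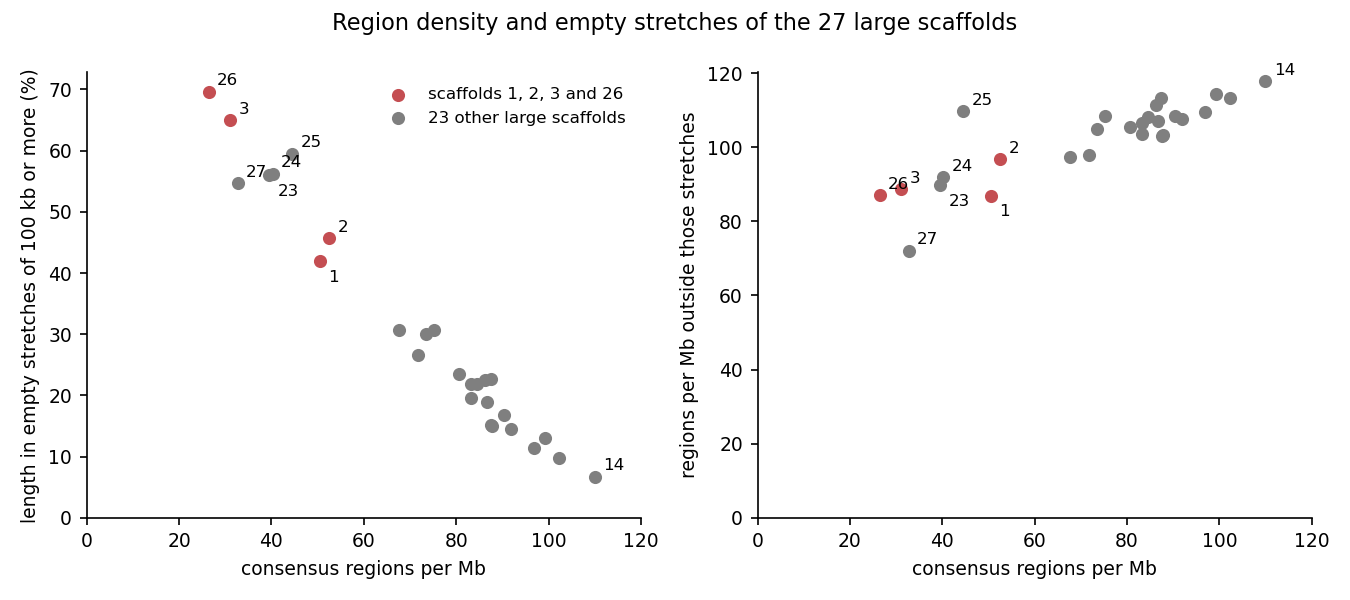
Share of scaffold length in empty stretches of at least 100 kb (left) and consensus regions per Mb outside those stretches (right), each against consensus regions per Mb, with 1 point per large scaffold. Scaffolds 1, 2, 3 and 26 hold 42.0% to 69.6% of their length in such stretches and 87.0 to 96.8 regions per Mb outside them. For scaffolds 23, 24, 25 and 27 these ranges are 54.6% to 59.5% and 72.1 to 109.8.

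The distances between neighbouring regions were longer on the 4 scaffolds throughout, and most so among the longest distances. The lower quartile of the distance between neighbouring regions was 1162 bp on the 4 scaffolds, against 923 bp on the other large scaffolds, and the median was 5028 bp, against 4387 bp. The upper quartile was 16178 bp, against 11469 bp, and the 90th percentile 51452 bp, against 26447 bp. The ratio of these distances was thus 1.26 at the lower quartile, 1.15 at the median, 1.41 at the upper quartile and 1.95 at the 90th percentile. It was 2.39 at the 95th percentile. With empty stretches of at least 100 kb taken out, the 4 scaffolds held 90.6 regions per Mb, against 107 on the other large scaffolds. Scaffold 1 then held 87.0, scaffold 26 held 87.1, scaffold 3 held 88.7 and scaffold 2 held 96.8. These were ranks 2, 3, 4 and 7 from the bottom of 27, and all 4 lay below the lowest of the 19 other scaffolds denser than scaffold 2, with 97.4. Scaffolds 27, 23, 24 and 25 held 72.1, 89.8, 92.0 and 109.8. Taking out long distances brings sparse and dense scaffolds closer by construction, and the result turns on the limit. With 50 kb the densities were 132.5 and 132.6 per Mb, and with 200 kb they were 64.5 and 92.8.

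**Figure D3:**
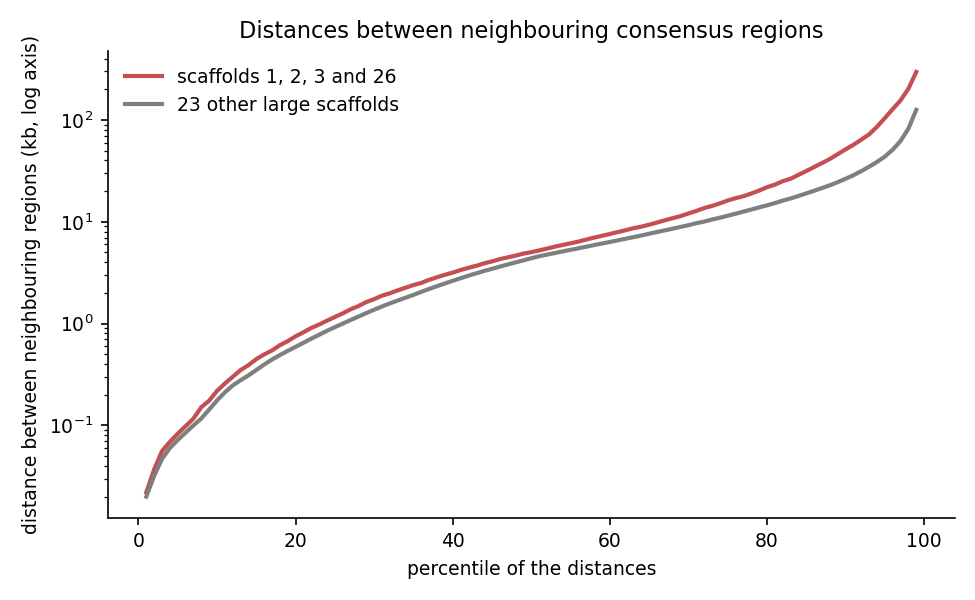
Distance between neighbouring consensus regions in kb, on a log axis, against the percentile of the distances on scaffolds 1, 2, 3 and 26 and on the 23 other large scaffolds. The curve of the 4 scaffolds is above the other at each percentile named here: 1162 and 923 bp at the 25th, 5028 and 4387 bp at the 50th and 51452 and 26447 bp at the 90th, where the gap is wider.

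Regions chained at distances under 100 kb formed 417 islands on the 4 scaffolds, with a median of 5 regions, against 1087 islands with a median of 16 regions on the other large scaffolds. Islands of 1 region made up 24.2% of those on the 4 scaffolds, against 15.1%. The median island of at least 2 regions spanned 145 kb, against 340 kb. Scaffolds 23, 24, 25 and 27 together had like values, with a median of 4 regions, 24.2% islands of 1 region and a median span of 123 kb. The largest island of the 4 scaffolds was on scaffold 1 at 42305263 to 44508377, with 229 regions over 2.20 Mb. Scaffold 2 had an island of 228 regions at 42711018 to 45012251. The largest on scaffold 3 had 130 regions at 16583383 to 17459868, and the largest on scaffold 26 had 92 at 4959218 to 5676591. On the other large scaffolds the largest island had 786 regions over 7.23 Mb.

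Across the stages the 4 scaffolds followed the course of the other large scaffolds. The late gastrula list held 1.44 peaks for each early blastula peak on the 4 scaffolds (95% interval 1.38 to 1.49, counting error only), against 1.39 on the other large scaffolds. This ratio carries the length of the lists, since late gastrula is the longest. It was 1.49 on scaffold 2, 1.46 on scaffold 26, 1.41 on scaffold 1 and 1.38 on scaffold 3. The mid gastrula list held 0.887 peaks for each early gastrula peak, against 0.896. Within the 4 this ratio ranged from 0.828 on scaffold 3, the lowest of the 27, to 0.932 on scaffold 2, the second highest. No counting interval was made for this step. Late gastrula peaks outnumbered early blastula peaks in 161 of 178 full bins (90.4%), against 828 of 885 (93.6%). Early blastula peaks were more frequent in 8 of 178 bins (4.49%), against a like share of 44 of 885 (4.97%). The numbers were equal in 9 bins, against 13. Among the 8 bins the widest margin was only 54 early blastula to 47 late gastrula peaks, at 37000001 to 38000000 on scaffold 2.

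Regions listed at all 4 stages made up less of the 4 scaffolds, and regions listed at 1 stage made up more. Regions of all 4 stages numbered 2140 of 7909, or 27.1% (Wilson 95% interval 26.1 to 28.05), against 29.4% (29.1 to 29.7) on the other large scaffolds. Regions of 1 stage were 3016, or 38.1% (37.1 to 39.2), against 35.9% (35.5 to 36.2). The surplus was mostly in late gastrula: 1598 regions were of late gastrula alone (20.2%, 19.3 to 21.1), against 18.5% (18.2 to 18.8). Regions of early blastula alone were 797 (10.1%, 9.43 to 10.8), against 10.2%. Regions of early gastrula alone were 427 (5.40%), against 5.01%, and those of mid gastrula alone 194 (2.45%), against 2.13%. Regions listed at early blastula and late gastrula and at neither stage between were 264 (3.34%, 2.96 to 3.76), against 2.79% (2.67 to 2.91). They were 3.78% on scaffold 1 and 3.81% on scaffold 3, but 2.76% on scaffold 2. The intervals cover counting error of regions and not the difference between embryos or libraries.

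**Figure D4:**
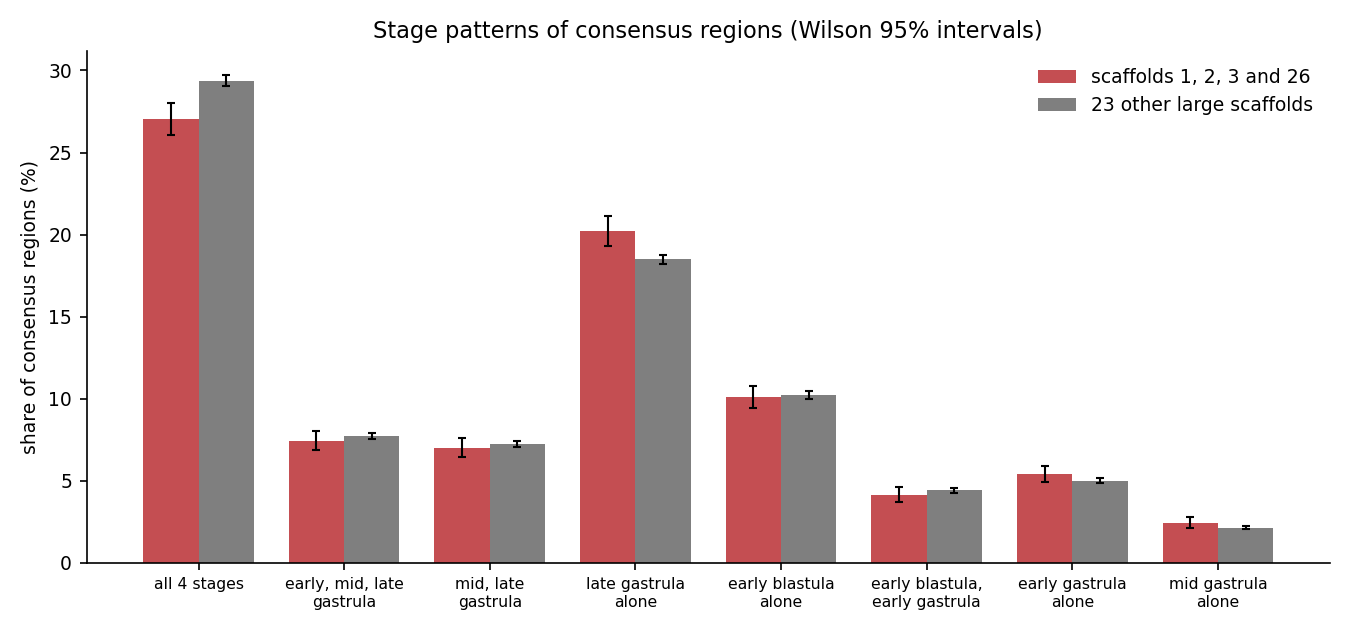
Share of consensus regions with each of 8 stage patterns on scaffolds 1, 2, 3 and 26 (left bar of each pair) and on the 23 other large scaffolds (right bar), with Wilson 95% intervals. Among these 8 patterns the intervals of the 2 groups are apart for regions of all 4 stages, at 27.1% and 29.4%, and for late gastrula alone, at 20.2% and 18.5%.

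The share of 4-stage regions was low on each of the 4 scaffolds. It was 24.3% on scaffold 26 (20.2 to 28.95), 26.7% on scaffold 3 (24.6 to 28.9), 27.2% on scaffold 1 (25.7 to 28.8) and 27.4% on scaffold 2 (25.8 to 29.1). These were ranks 1, 3, 4 and 5 from the bottom of 27. Rank 2 was held by scaffold 24 with 26.4%, and the other large scaffolds reached 31.9%. Pooled, the 4 other scaffolds sparser than scaffold 2 had 28.9% (27.3 to 30.5), against 27.1% on the 4 scaffolds and 29.4% on the other large scaffolds. Their share of 1-stage regions was 36.2% (34.5 to 37.9), against 38.1% and 35.9%. Their share of late gastrula alone was 18.9% (17.6 to 20.3), against 20.2% and 18.5%. These intervals overlap those of both groups, and each share lay nearer that of the other large scaffolds. The share of late gastrula alone ranged from 19.8% on scaffold 1 to 21.1% on scaffold 26, against 16.0% to 20.2% on the other large scaffolds. Regions listed at mid and late gastrula and at no earlier stage were 7.02% (6.47 to 7.60), against 7.25% (7.07 to 7.44). They ranged from 5.79% on scaffold 3 (4.74 to 7.05), the lowest of the 27, to 8.65% on scaffold 26, the highest. Scaffold 26 held only 370 regions. Of the 3401 regions listed at both early and late gastrula, 673 were not listed at mid gastrula (19.8%, 18.5 to 21.2), against 18.0% (17.6 to 18.4). On scaffold 3 this share was 22.1% (19.2 to 25.4), the highest of the 27. On scaffold 2 it was 18.0% (16.0 to 20.3), like the other large scaffolds.

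Pooled over the 4 scaffolds, slightly fewer regions were kept from stage to stage than on the other large scaffolds. Of their early blastula regions 70.3% were listed at early gastrula (68.8 to 71.6), against 72.2% (71.8 to 72.6). From early to mid gastrula 67.0% were kept (65.6 to 68.4), against 69.1% (68.6 to 69.5). From mid to late gastrula 89.4% were kept (88.4 to 90.4), against 90.7% (90.4 to 91.0), and from early blastula to late gastrula 69.6% (68.2 to 71.0), against 70.1% (69.6 to 70.5). The last pair of intervals overlaps, and these steps share lists.

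The share of 4-stage regions was higher in denser bins. Where a 1 Mb bin held 1 to 10 regions, 18 of 130 regions of the 4 scaffolds had all 4 stages (13.8%, 8.94 to 20.8), against 19.1% (13.5 to 26.4) in such bins of the other large scaffolds. The shares were 21.2%, against 23.1%, in bins of 11 to 25 regions, 25.6%, against 25.3%, in bins of 26 to 50, and 27.5%, against 28.8%, in bins of 51 to 100. In bins of over 100 regions they were 32.7% (30.2 to 35.4), against 30.6% (30.1 to 31.1). Weighted by the share of the 4 scaffolds' regions, not of their bins, in each class, the difference in 4-stage share was −0.52 percentage points. It was −2.33 without regard to density. With the same weights the difference for regions of 1 stage was 0.16 points in place of 2.27. For regions of late gastrula alone it was 0.70 points in place of 1.71. These weighted values average over classes that differed in direction. From sparse to dense bins, 1-stage shares were 53.1%, 46.3%, 38.9%, 37.5% and 32.3%, against 52.5%, 41.9%, 40.2%, 36.6% and 34.5%. Shares of late gastrula alone were 23.1%, 26.2%, 20.4%, 19.9% and 17.1%, against 27.7%, 20.2%, 20.9%, 18.9% and 17.8%. These density classes were chosen after the data were seen.

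Peaks on the 4 scaffolds had a lower median width than those on the other large scaffolds at every stage, as did peaks on the other sparse scaffolds. In order of development the median width was 280 bp, 278.5 bp, 289 bp and 264 bp, against 296, 292, 300.0 and 274 bp on the other large scaffolds. On scaffolds 23, 24, 25 and 27 together it was 277, 280, 286 and 268 bp. The upper quartiles were 387, 385, 390.0 and 361 bp, against 419, 406, 407 and 370.0 bp. By scaffold the medians at late gastrula lay between 261 bp on scaffold 26 and 267 bp on scaffold 2, against 265.5 to 282 bp. At mid gastrula scaffold 26 stood apart from the other three with 300.0 bp over its 171 peaks, while scaffolds 1, 2 and 3 had 286, 293 and 283 bp. Peaks longer than 1000 bp numbered 31, 16, 9 and 12 on the 4 scaffolds from early blastula to late gastrula. They were 0.729%, 0.361%, 0.229% and 0.197% of the peaks, against 0.868%, 0.417%, 0.277% and 0.210%. Within classes of local density the difference in median width from the other large scaffolds, weighted to the peaks of the 4 scaffolds, was −8.75, −7.18, −5.43 and −3.14 bp. Without regard to density it was −16, −13.5, −11 and −10 bp.

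Peaks on the 4 scaffolds stood higher over their background. The authors' deposited enrichment, a fold over background, was ranked within each whole list. Its median percentile on the 4 scaffolds was 58.6 at early blastula and 56.6, 55.2 and 55.3 at early, mid and late gastrula, against 48.7, 48.9, 48.9 and 49.1 on the other large scaffolds. The median enrichment was 7.53, 8.63, 8.86 and 8.18 on the 4 scaffolds, against 6.91, 8.05, 8.39 and 7.65. Peaks in the upper 10% of their list were 13.3%, 11.9%, 11.3% and 11.9% of those on the 4 scaffolds, against 9.38%, 9.58%, 9.58% and 9.53%. Scaffold 26 had the highest median percentile of the 27 scaffolds at early blastula, early gastrula and mid gastrula, with 65.4, 61.8 and 62.9, and the second highest at late gastrula, with 59.8. Scaffolds 1, 2 and 3 ranged from 53.0 on scaffold 2 at late gastrula to 59.4 on scaffold 3 at mid gastrula, and ranked 21 to 25 from the bottom.

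The deposited −log10 p of the same peaks did not stand higher by more than 0.412 percentile points in any list. Its median percentile on the 4 scaffolds was 50.3, 48.6, 47.8 and 49.9 from early blastula to late gastrula, against 49.9, 50.1, 50.2 and 49.9 on the other large scaffolds. The share of peaks with an IDR of at most 0.01 was lower, at 47.0%, 49.4%, 46.5% and 49.5%, against 49.5%, 52.2%, 50.3% and 51.6%. The IDR, or irreproducible discovery rate, is lowest for peaks that rank both high and alike in the replicates. The median percentile of enrichment was higher within each class of stage pattern at each stage. At late gastrula the median percentile was 70.8 for 4-stage peaks of the 4 scaffolds, against 65.5 on the other large scaffolds, and 37.5 for peaks of late gastrula alone, against 31.4. At early blastula it was 67.5 for 4-stage peaks, against 57.7, and 43.8 for peaks of early blastula alone, against 34.3.

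**Figure D5:**
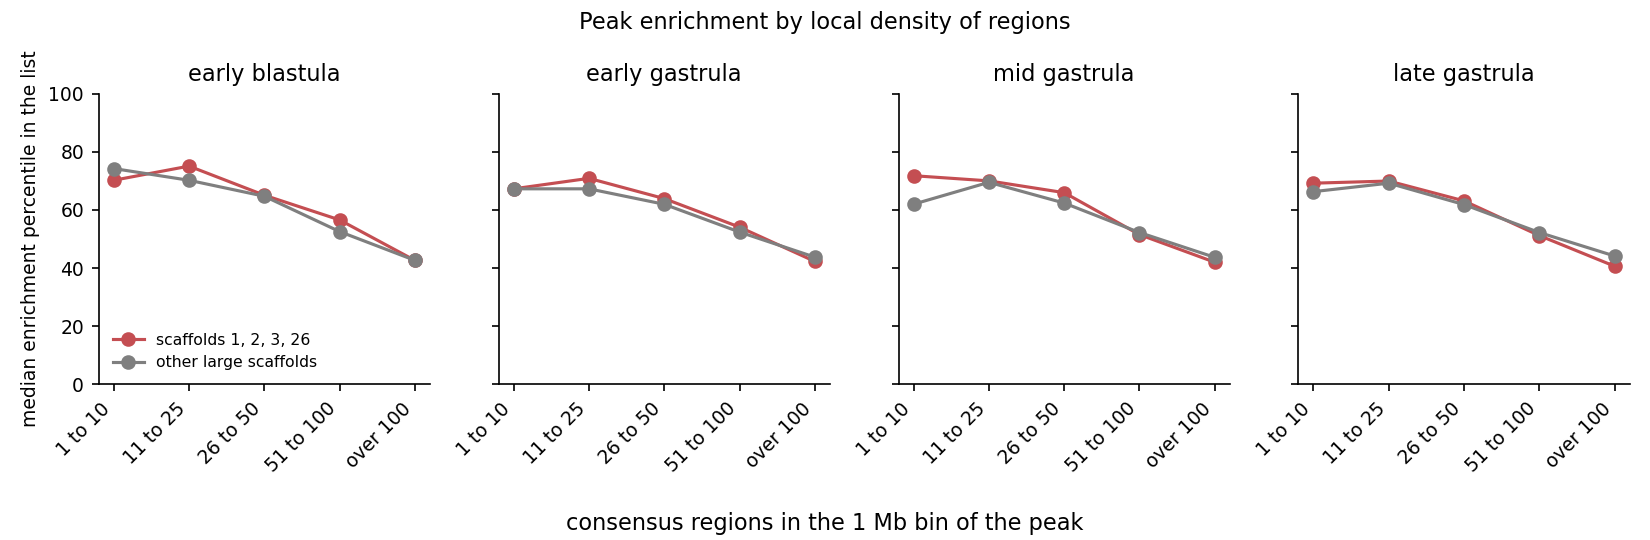
Median percentile of the deposited enrichment within its list, by the number of consensus regions in the peak's 1 Mb bin, for peaks on scaffolds 1, 2, 3 and 26 and on the other large scaffolds, with 1 panel per stage. In both groups peaks in sparse bins stand near the percentile of 70 and peaks in bins of over 100 regions near 42, and the lines of the 2 groups lie close together, with the widest gap at mid gastrula in bins of 1 to 10 regions (71.7 and 62.0).

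Enrichment was lower in denser bins, on the 4 scaffolds and on the other large scaffolds alike. At early blastula the median percentile on the 4 scaffolds was 70.2 in bins of 1 to 10 regions, 75.04 in bins of 11 to 25, 65.0 in bins of 26 to 50, 56.5 in bins of 51 to 100 and 42.6 in bins of over 100. On the other large scaffolds it was 74.2, 70.2, 64.7, 52.5 and 42.6 in the same classes. At late gastrula it was 69.2, 69.9, 63.1, 51.2 and 40.6 on the 4 scaffolds, against 66.3, 69.2, 61.8, 52.2 and 44.1. Weighted to the peaks of the 4 scaffolds, the difference within classes was 2.34 percentile points at early blastula and 1.34, 0.352 and −0.69 points at the gastrula stages in order. Without regard to density it was 9.90, 7.69, 6.34 and 6.24 points. The same order was seen within a stage pattern: 4-stage peaks of the 4 scaffolds at late gastrula had a median percentile of 86.3 in bins of up to 25 regions (162 peaks), 79.0 in bins of 26 to 50 and 64.9 in denser bins. Peaks of late gastrula alone had 52.2, 43.7 and 30.4 in these bins.

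By scaffold, too, enrichment was higher where regions were sparse. Across the 27 large scaffolds, which share the same 4 lists, Spearman's rho between regions per Mb and the median percentile of enrichment was −0.84, −0.68, −0.72 and −0.73 from early blastula to late gastrula. Over the 23 other large scaffolds it was −0.80, −0.53, −0.60 and −0.60. Scaffold 25 went against this order, with 44.5 regions per Mb and median percentiles of 47.1, 42.1, 43.3 and 45.7. Scaffolds 23, 24, 25 and 27 together, the other sparse ones, had medians of 57.0, 55.1, 54.2 and 55.8, close to those of the 4 scaffolds.

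The peaks of highest enrichment on the 4 scaffolds were all in regions listed at every stage. Their nearest other region was between 44 and 290958 bp away. On scaffold 2 the site at 2129407 to 2129749 had the highest enrichment of the whole mid gastrula list, at 30.2. Its peak had 25.5 at early blastula, 29.0 at early gastrula and 30.7 at late gastrula, ranks 5, 4 and 5 of those lists. The nearest other region was 12691 bp from the mid gastrula peak. On scaffold 1 the site at 43225588 to 43225996 was second of the whole early blastula list, with an enrichment of 26.7. It had 27.4 and 25.2 at early and mid gastrula and 23.7 at late gastrula, where it ranked 91. It ranked 13 at early gastrula and 37 at mid gastrula. Another site on scaffold 1, at 57176733 to 57176988, led that scaffold at late gastrula with 25.8, against 19.0 at early blastula.

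On scaffold 3 the site at 19346125 to 19346431 led at early, mid and late gastrula, with enrichments of 25.1, 27.5 and 25.6, and had 19.3 at early blastula. No other region lay within 69 kb of it. The leading site of scaffold 3 at early blastula was at 30943956 to 30944228, with 21.8 there and 23.1, 25.5 and 24.4 at the later stages. On scaffold 26 the site at 4551702 to 4552071 led at early blastula with 20.7 and at late gastrula with 19.6. The site at 7899840 to 7900153 led at early gastrula with 25.9, rank 24 of that list, and its peaks had 17.9 at early blastula, 13.2 at mid gastrula and 12.3 at late gastrula, where it ranked 8210. The leader at mid gastrula, at 9299553 to 9299862 with 21.6, bordered the longest empty stretch of scaffold 26, and the nearest region on its other side was 290958 bp away.

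Among regions of early blastula alone, the highest enrichment on the 4 scaffolds was at 33348199 to 33348551 on scaffold 3, with 20.5 and rank 47 of the list. The leaders on scaffold 1 at 15241704 to 15242032, on scaffold 26 at 8684148 to 8684364 and on scaffold 2 at 23819272 to 23819553 had 14.3, 13.7 and 13.3. Among regions of late gastrula alone, scaffold 2 led with 17.5 at 33939603 to 33940079, followed by scaffold 1 with 17.4 at 16386123 to 16386360 and scaffold 3 with 16.8 at 36079834 to 36080114. On scaffold 26 the leader had 13.0, at 4156791 to 4157007. The scaffold 1 site lay 95507 bp from the nearest peak of another stage.

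The broadest peak of the 4 scaffolds was 1613 bp wide, at 49522170 to 49523782 on scaffold 2 in the early gastrula list, with an enrichment of 5.96. The same place held a peak of 1525 bp at early blastula and none at mid or late gastrula. On scaffold 1 the broadest peak, of 1497 bp at 12184002 to 12185498 in the early blastula list, was matched by 2 separate peaks in each later list. At mid gastrula these were 703 and 757 bp wide. On scaffold 3 a peak of 1386 bp at 13397512 to 13398897 at early gastrula had counterparts of 1290 bp at mid gastrula and 1216 bp at late gastrula, and 2 peaks of 1047 and 307 bp at early blastula. On scaffold 26 the broadest peak was 1200.0 bp wide at early blastula, at 13468587 to 13469786, and the peaks there were 447, 617 and 459 bp wide at the later stages.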

How the data were processed

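The authors deposited 1 list of IDR peaks per stage, in 12 columns without a header; Bowtie2, bedtools and MACS2 are named in the submitters' processing notes without version or role. Genome build, calling settings and any pooling of libraries were not given in the sources used here, so gene positions and sequence were not used. In these deposited lists column 5 is a score derived from the IDR, with a maximum of 1000, column 7 a fold enrichment, column 8 −log10 of a p-value and column 12 −log10 of the IDR, as inferred from the values and the layout of IDR output. They are the authors' values per peak and were used only to rank or filter within a list. The highest IDR was 0.100, so weaker peaks are absent.

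Starts were made 1-based. Scaffold length was the larger of the length in the name and the last peak end, which added 36242 bp to scaffold 2. Peaks of all lists were merged into consensus regions at an overlap of at least 1 bp. Bins of 1 Mb took regions by their midpoint, and scaffold ends bordered empty stretches. Percentiles used mid-ranks within the whole list. Wilson 95% intervals cover counting error only. Sites were named by rule: per scaffold the longest empty stretch, the densest and sparsest full bin, the most enriched peak of each list, of early blastula alone and of late gastrula alone, and the broadest peak. Scaffolds and measures were chosen with earlier results of these data known. The merging step was checked on simulated data. Stricter lists, equal list lengths, other overlap and length rules and omission of scaffolds 14 and 26 were tried as alternatives. Tables and Wilson intervals were made in Python 3.11.15 with pandas 2.3.3 and NumPy 2.4.6, and plots with Matplotlib 3.10.9. SciPy 1.17.1 was also loaded.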

Additional observations from a re-analysis of the deposited data

How the results depend on the processing

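Of 91 alternative values 42 stayed within the counting interval of the main value, or within 1 point for shares of length, 46 moved beyond it and 3 changed sign. Values over stages are in order of development. The ratio of peak density on the 4 scaffolds to that on the other large scaffolds was 0.511, 0.510, 0.505 and 0.526. It was 0.486, 0.482, 0.467 and 0.505 with an IDR of at most 0.01, 0.476, 0.468, 0.452 and 0.472 from medians of scaffolds, 0.530, 0.528, 0.523 and 0.545 without scaffold 26, and 0.487, 0.484, 0.480 and 0.501 against the 19 denser other scaffolds. The empty share of 51.7% became 69.9% with the stricter IDR, 67.0% for stretches of 50 kb, 32.1% for 200 kb and 50.2% without scaffold 26. Its difference of 28.6 points from the other large scaffolds became 30.0 with the stricter IDR, 20.4 for 200 kb, 27.1 without scaffold 26 and 31.9 against the denser scaffolds. The 4-stage share of 27.1% became 29.1% with the stricter IDR, 29.7% with equal list lengths and 24.4% where a stage had to cover 50% of the region, and its difference became −1.24 points under that rule and −0.52 within classes of local density. The 1-stage share of 38.1% became 34.9% with equal list lengths and 39.4% under the 50% rule, and its difference 0.16 points within density classes. The width difference became −24 bp at early blastula and −5 bp at late gastrula with the stricter IDR, and −8.75, −7.18, −5.43 and −3.14 bp within density classes. The enrichment difference became 11.1 points at early blastula and 7.26 at late gastrula with the stricter IDR. It was 2.34, 1.34, 0.352 and −0.69 points within density classes, the last a change of sign. With −log10 p in place of enrichment it was 0.412, −1.54, −2.39 and 0 points, a change of sign at early and mid gastrula. With the stricter IDR, late gastrula peaks were 1.51 for each early blastula peak. Why these values moved was not tested. The comparisons with denser scaffolds and within density classes were chosen after seeing the data.

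No paired analysis was possible because the deposited lists are 1 per stage and hold no values per replicate. Leaving out a replicate was not done for the same lack. Depth per library is unknown, so an empty stretch shows that no peak passed the authors' threshold and not that accessibility is absent.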
